A study of Gallus gallus with 12 samples.

Results

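The genes described here are those of DNA replication and S phase: the MCM helicase, the origin recognition complex, the factors that load and fire origins, the replicative polymerases with primase, the sliding clamp and its loader, the proteins that coat single-stranded DNA or finish the lagging strand, the enzymes of deoxynucleotide supply, and the E2F factors and cyclins E and D that govern entry into S phase. The list held 49 genes. A gene was represented by the chicken probe set that carries its symbol alone in the platform annotation and, where several did, by the probe set with the highest mean signal over the 12 arrays. In this way 44 of the 49 genes, out of 13008 genes with a symbol of their own on the array, were measured, and all 44 passed the filter on low signals and were tested. MCM4, CDC6, GINS2, POLD1 and CDK2 had no such probe set and are not analysed here.

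The samples came from the dorsal mesentery, the double layer of tissue from which the gut hangs, of white Leghorn chicken embryos at Hamburger-Hamilton stage 21, about day 3.5 of incubation. Embryos were untreated and carried no genetic change that the labels name. Frozen sections of 8 µm were cut by laser into 4 compartments: the left epithelium, the right epithelium, the left mesenchyme and the right mesenchyme. Each of 3 biological experiments gave 4 samples, 1 of each compartment, each pooled and hybridised to an Affymetrix array of its own after amplification of the RNA, so that every compartment had n = 3 arrays. In all, 1939 laser-cut sections entered the series. The replicate numbers in the labels were taken as the numbers of the experiments, which the labels do not state outright. Nor do they give the number of embryos per pool.

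DNA replication starts at origins that are prepared before S phase. The origin recognition complex binds there and, with CDC6 and CDT1, loads the MCM helicase as an inactive ring. When S phase begins, CDC45 and the GINS complex join the ring and switch it on, primase and the polymerases follow, and the PCNA clamp, placed by the RFC loader, holds the polymerases on the template. Many of these genes are transcribed by E2F factors, which retinoblastoma proteins hold back until kinases bound to D cyclins and then to cyclin E release them, so their mRNAs are usually most abundant in cells about to copy or copying their DNA. In the dorsal mesentery of the chick, the left side is known to become denser in its mesenchyme and taller in its epithelium than the right, a difference that tilts the primitive gut and sets the direction of its looping.

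Values are linear signals computed with Affymetrix's MAS5 algorithm, and changes are differences of log2(signal + 16), given ± the standard error of the fit. The median signal of an array ran from 84.2 to 98.6, and the floor, taken as the 95th percentile of 42 control probe sets for bacterial RNAs that were not added, from 21.1 to 39.2. All replication genes lay above the floor on all 12 arrays except POLA2, a subunit of the primase-polymerase, which fell below it on 1 right mesenchyme array. Markers bore out part of the compartment names, by the test at an adjusted p of 0.05 described below. Of 11 markers of coelomic epithelium, 7, among them PODXL and EMX2, were called higher in epithelium than in mesenchyme. None was called lower, although 2 had changes below 0, the lowest at -0.77. Of 12 mesenchyme markers, 3 (LUM, DCN and PDGFRA) were called higher in mesenchyme, while 4 had changes towards epithelium that were not called. Of 20 endothelial markers, 13 were called higher in mesenchyme. Over all probe sets, 2.00% were called higher in epithelium and 2.79% lower. The mesenchyme factor FOXF1 and the tight junction gene CLDN3 were at or below the floor on all arrays. Left epithelium 2 and 3 held less summed signal of 7 blood cell markers (23971 and 19351) than any other array (45232 to 71876), and right epithelium 3 and right mesenchyme 3 deviated most from the mean of their compartments.

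Replication genes had the highest signals in the left epithelium and the lowest in the right mesenchyme. Centred on each gene's own mean over the 12 arrays, the median log2 value of the 44 genes was 0.30, 0.17 and 0.20 on the left epithelium arrays of experiments 1, 2 and 3, 0.05, -0.05 and 0.05 on the left mesenchyme arrays, 0.04, 0.02 and -0.04 on the right epithelium arrays, and -0.17, -0.27 and -0.29 on the right mesenchyme arrays. The left epithelium stood above all other arrays and the right mesenchyme below all others, whereas left mesenchyme and right epithelium overlapped. Of the 44 genes, 37, 28 and 33 lay above their own mean on the left epithelium arrays, 27, 19 and 25 on the left mesenchyme arrays, 26, 24 and 20 on the right epithelium arrays, and 11, 7 and 7 on the right mesenchyme arrays. In tissue pools of this kind, fewer cells in S phase and less of these RNAs per cell cannot be told apart.

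**Figure D1:**
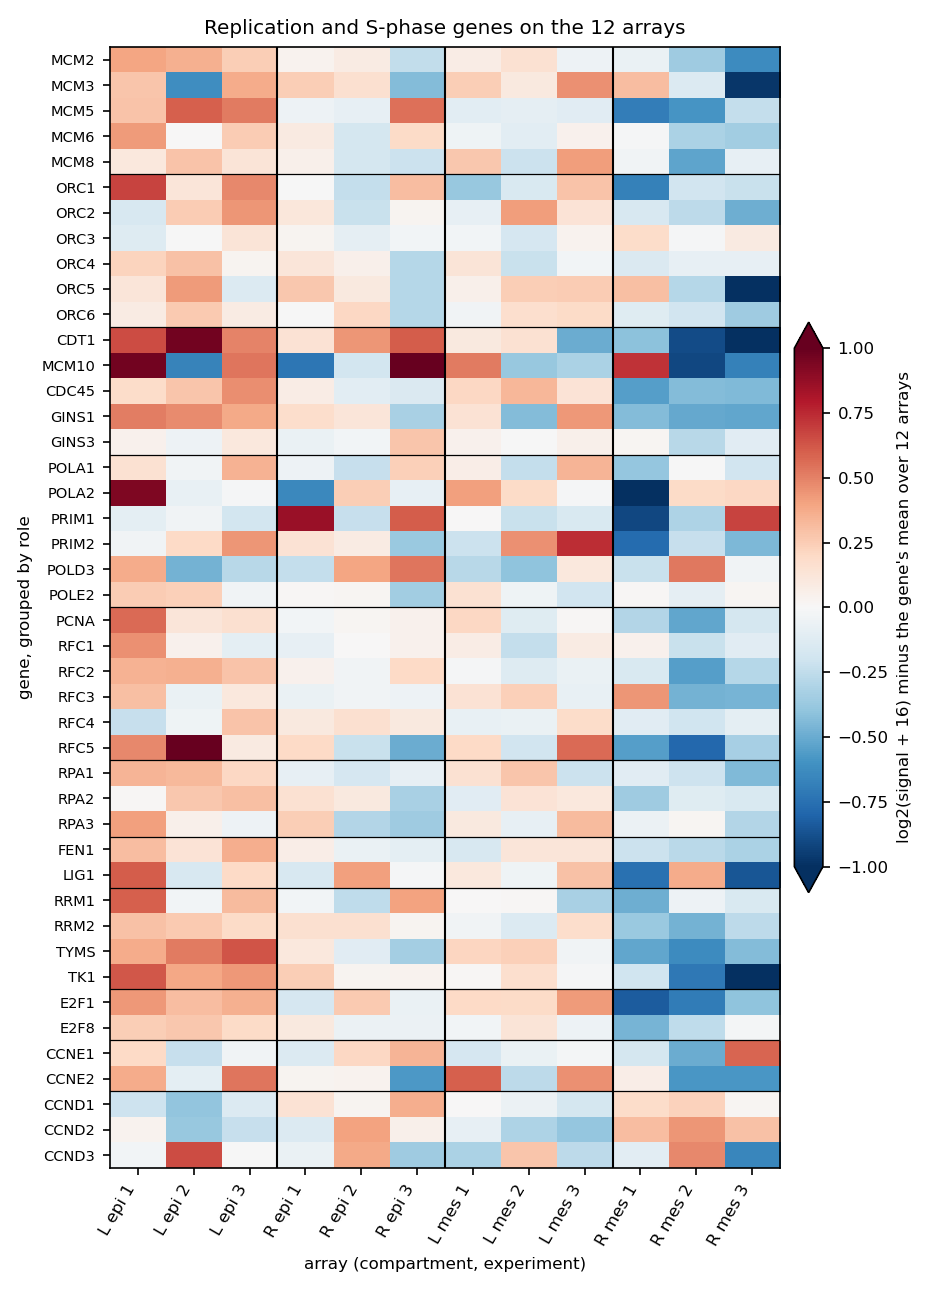
Each row is 1 of the 44 genes, in blocks of like role, and each column is 1 array; colour gives log2(signal + 16) minus the gene's mean over the 12 arrays, with red above and blue below that mean. Most rows are reddest in the 3 left epithelium columns and bluest in the 3 right mesenchyme columns, while CCND1 and CCND2 run the other way.

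Between the sides, the data show small differences with most of the set higher on the left. In mesenchyme, 4 of the 44 genes (E2F1, CDC45, TK1 and TYMS) rose on the left and 1 (CCND2) fell, by limma's moderated test with Benjamini-Hochberg adjustment over all 23063 probe sets at 0.05; over all probe sets 0.932% were called higher and 1.06% lower (1.99% in all). In epithelium 1 gene, TYMS, rose on the left and 0 fell, beside 1.00% and 1.47% of all probe sets (2.47% in all). With both tissues averaged, 9 genes rose on the left (MCM2, CDC45, GINS1, PCNA, RFC5, RRM2, TYMS, TK1 and E2F1) and 2 fell (CCND1 and CCND2), beside 2.45% and 2.82% of all probe sets (5.28% in all). The 3 comparisons use the same arrays and are not independent of one another. All probe sets here are all those tested, down to a mean signal of 47.4, with dimmer sets of the same genes and sets without a symbol. The members are the brightest set of each gene, so the shares are not matched for signal.

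Most of the 44 differences between the sides had the same sign, whether or not they passed the test. The median left-right change of the 44 genes was 0.29 in mesenchyme, 0.23 in epithelium and 0.26 over both, against medians of 0.00, 0.01 and 0.01 for all probe sets. By experiment, the median in mesenchyme was 0.22, 0.32 and 0.39, and that in epithelium 0.26, 0.20 and 0.20, so that each experiment gave a positive value in each tissue. The change was above 0 in 37 of 44 genes in mesenchyme, in 37 in epithelium and in 38 over both. In mesenchyme all left arrays lay above all right arrays for 17 genes and below them for 2, where 8.93% and 8.78% of all probe sets did so. In epithelium the counts were 13 and 1, beside 7.77% and 7.91%. Over both tissues 27 genes were higher on the left in all 3 experiments and 2 lower, beside 18.4% and 17.2%. All 6 left arrays lay above all 6 right arrays for 1 gene (CDC45) and below for 1 (CCND1), beside 1.05% and 1.21%.

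**Figure D2:**
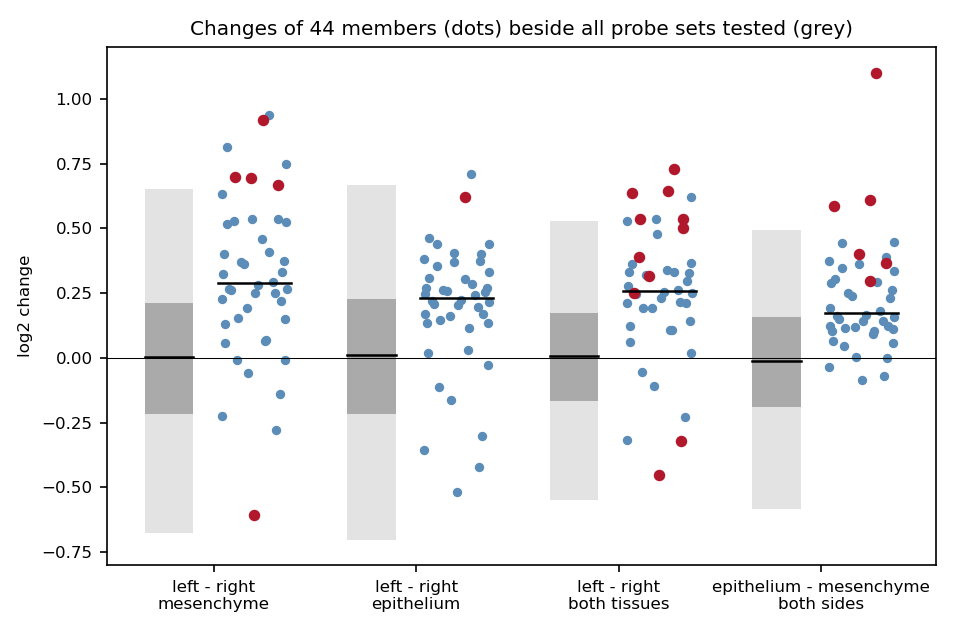
Log2 changes of the 44 genes (dots; red where the adjusted p is under 0.05) in 4 comparisons, beside all 23063 probe sets (light grey, 5th to 95th percentile; dark grey, 25th to 75th percentile); black lines are medians. In each comparison the median of the 44 genes, 0.29, 0.23, 0.26 and 0.17 from left to right, lies above that of all probe sets.

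Among the genes of the MCM family, which supplies the replicative helicase, MCM2 rose on the left. MCM2, a subunit of that helicase, had signals of 2492, 2421 and 2252 in left epithelium, 1944, 2003 and 1590.5 in right epithelium, 1995, 2104 and 1826 in left mesenchyme, and 1811, 1475 and 1220.1 in right mesenchyme, each list here and below being in the order of experiments 1 to 3. All left arrays lay above all right arrays within each tissue. The change was 0.39 ± 0.10 (adjusted p = 0.022, 1.31-fold) over both tissues, 0.41 ± 0.14 (adjusted p = 0.18) in mesenchyme and 0.38 ± 0.14 (adjusted p = 0.22) in epithelium. MCM2 no longer passed for both tissues without any 1 of left epithelium 3, left mesenchyme 2 or 3, or right mesenchyme 2 or 3 (adjusted p up to 0.073) or without experiment 1, 2 or 3 (adjusted p up to 0.22). Nor did it pass with the mean of all MCM2 probe sets. The other set, with a mean signal of 26.4, was not itself tested and gave 0.51. The subunit MCM6 had the highest mean signal of the family, with 2833, 2116 and 2516 in left epithelium, 2237, 1859 and 2414 in right epithelium, 2044, 1957 and 2167 in left mesenchyme, and 2086, 1690.4 and 1648 in right mesenchyme. Its sides overlapped in both tissues, and its change over both tissues was 0.19 ± 0.10 (adjusted p = 0.33). The other tested MCM6 probe sets, both dimmer, gave 0.55 and 0.54. MCM5, another subunit, gave 874, 1086 and 1032 in left epithelium, 688, 672 and 1055 in right epithelium, 661, 667 and 658 in left mesenchyme, and 436, 469.5 and 602 in right mesenchyme. The left lay above the right on all arrays of the mesenchyme but not of the epithelium, where right epithelium 3 reached the left level, and the side change of 0.37 ± 0.14 (adjusted p = 0.16) did not pass. MCM3, a further subunit, and MCM8, a relative outside the core helicase that acts in repair, had differences of 0.28 ± 0.23 and 0.33 ± 0.15, neither past the threshold.

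None of the 6 subunits of the origin recognition complex, which marks the sites where replication can begin, passed the test between the sides. Changes over both tissues ran from -0.06 for ORC3 to 0.34 for ORC1, with a median of 0.29. ORC2, the subunit probe set with the highest mean signal, had 4147, 5514 and 6291 in left epithelium, 5015, 3958 and 4713 in right epithelium, 4368, 6181 and 5098 in left mesenchyme, and 4138, 3854 and 3303 in right mesenchyme. Its left mesenchyme arrays lay above its right ones, the closest values being 4368 and 4138, and its epithelial arrays overlapped. The ORC2 change was 0.46 ± 0.16 (adjusted p = 0.19) in mesenchyme and 0.33 ± 0.11 (adjusted p = 0.11) over both tissues. ORC1, the largest subunit, had a difference of 0.34 ± 0.16 (adjusted p = 0.30), and ORC4, ORC5 and ORC6 had 0.14 ± 0.09, 0.32 ± 0.18 and 0.25 ± 0.11, none past the threshold.

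Of the factors that load and fire origins, CDC45 and GINS1 rose on the left. CDC45, which joins the MCM ring to form the active helicase, gave 2261, 2411 and 2743 in left epithelium, 2083, 1838 and 1795 in right epithelium, 2287, 2499.6 and 2184 in left mesenchyme, and 1352, 1462 and 1458 in right mesenchyme. All left arrays, of either tissue, lay above all right arrays. Its change was 0.70 ± 0.14 (adjusted p = 0.0095, 1.62-fold) in mesenchyme, 0.37 ± 0.14 (adjusted p = 0.23) in epithelium and 0.53 ± 0.10 (adjusted p = 0.0022, 1.45-fold) over both tissues. The call over both tissues stood without any single array and was lost without experiment 2 (adjusted p = 0.077), and that in mesenchyme was lost without left mesenchyme 1 or 2 or right mesenchyme 1 (adjusted p up to 0.088) or without experiment 1 or 2 (adjusted p up to 0.22). GINS1, a subunit of the GINS complex that binds CDC45, had signals of 3303, 3213 and 3011 in left epithelium, 2615, 2518 and 1844 in right epithelium, 2555, 1709 and 3133 in left mesenchyme, and 1706, 1616 and 1612 in right mesenchyme. Left lay above right within each tissue, although left mesenchyme 2 was barely above the right mesenchyme arrays. The GINS1 change of 0.50 ± 0.13 (adjusted p = 0.029, 1.41-fold) over both tissues passed. It no longer did so without any 1 of left epithelium 1, 2 or 3, left mesenchyme 1 or 3, right mesenchyme 1, 2 or 3, or right epithelium 3 (adjusted p up to 0.10) or without experiment 1 or 3 (adjusted p up to 0.19), nor with the mean of all 4 GINS1 probe sets in place of the brightest (adjusted p = 0.91). The 3 dimmer sets had differences of -0.11, 0.00 and -0.16. Their mean signals were 2.46, 153 and 56.7, against 2403 for the set used. The first lay below the floor and was not itself tested, while the sets at 153 and 56.7 passed the filter and were tested. These gave -0.43 and 0.11 in mesenchyme and 0.44 and -0.44 in epithelium.

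GINS3, another subunit of GINS and the member of this role with the highest mean signal, gave 4184, 3916 and 4356 in left epithelium, 3869, 3985 and 4922 in right epithelium, 4189, 4038 and 4206 in left mesenchyme, and 4106, 3344 and 3753 in right mesenchyme. The sides overlapped in both tissues, and the change was 0.06 ± 0.08 (adjusted p = 0.77). CDT1, which brings the MCM ring to origins and is degraded once S phase has begun, had signals of 993, 1241 and 889.7 in left epithelium, 693, 859 and 961 in right epithelium, 674, 697 and 439.5 in left mesenchyme, and 468, 330.2 and 175 in right mesenchyme. Its sides overlapped by a small margin in mesenchyme, since left mesenchyme 3 was below right mesenchyme 1, and the changes of 0.94 ± 0.26 (adjusted p = 0.088) in mesenchyme and 0.62 ± 0.19 (adjusted p = 0.064) over both tissues missed the threshold. MCM10, which acts with CDC45 when origins fire, had a difference of 0.22 ± 0.32 (adjusted p = 0.81), with signals above and below its own mean in every compartment.

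The polymerases and primase gave no call between the sides. The change over both tissues was above 0 for 4 of the 6 genes, with a median of 0.17. POLE2, a subunit of the leading-strand polymerase epsilon and the brightest of the group, had 2369, 2332 and 1929 in left epithelium, 1992, 2005 and 1551 in right epithelium, 2196, 1925 and 1728 in left mesenchyme, and 2000.0, 1861 and 2007 in right mesenchyme. Left epithelium lay above right epithelium in every experiment, although the groups overlapped in both tissues, and the change was 0.12 ± 0.10 (adjusted p = 0.58). The catalytic subunit POLA1 of the polymerase that starts new strands had a difference of 0.21 ± 0.11 (adjusted p = 0.39), and its partner POLA2 one of 0.48 ± 0.33. The primase subunits PRIM1 and PRIM2 had differences of -0.23 ± 0.27 and 0.53 ± 0.18, and POLD3, a subunit of the lagging-strand polymerase delta, of -0.32 ± 0.17, none past the threshold.

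PCNA and RFC5 rose on the left among the clamp and the 5 subunits of its loader. PCNA, the ring that tethers polymerases to DNA, gave 11134, 8179.9 and 8376 in left epithelium, 7373, 7619 and 7761 in right epithelium, 8688, 6912 and 7589 in left mesenchyme, and 6117, 5249.8 and 6653 in right mesenchyme. Left exceeded right on all arrays within each tissue, by the least margin in left mesenchyme 2. Its change was 0.32 ± 0.08 (adjusted p = 0.020, 1.24-fold) over both tissues, with 0.36 ± 0.11 (adjusted p = 0.11) in mesenchyme and 0.27 ± 0.11 (adjusted p = 0.28) in epithelium. PCNA was not called without any 1 of left epithelium 1, left mesenchyme 1, right mesenchyme 1 or 2, or right epithelium 1 (adjusted p up to 0.071) or without experiment 1 or 2 (adjusted p up to 0.25). RFC5, a loader subunit, had 828, 1221 and 627 in left epithelium, 679, 501 and 412 in right epithelium, 679, 513 and 880.2 in left mesenchyme, and 397, 335 and 465 in right mesenchyme. Its left mesenchyme lay above its right mesenchyme, and its epithelial sides overlapped. The RFC5 change of 0.73 ± 0.19 (adjusted p = 0.036, 1.66-fold) had the largest size of the 11 called over both tissues, and it was lost without any 1 of left epithelium 1 or 2, left mesenchyme 1 or 3, right mesenchyme 1 or 2, or right epithelium 2 or 3 (adjusted p up to 0.13) or without experiment 1, 2 or 3 (adjusted p up to 0.21). RFC2 gave 4268, 4283 and 4085 in left epithelium, 3436, 3259.9 and 3846 in right epithelium, 3321, 3054 and 3187 in left mesenchyme, and 3014, 2273 and 2736 in right mesenchyme. All left arrays lay above the right arrays of the same tissue, yet the change of 0.26 ± 0.08 (adjusted p = 0.083) did not pass. RFC1, RFC3 and RFC4 had differences of 0.11 ± 0.11, 0.21 ± 0.22 and 0.02 ± 0.08, none past the threshold.

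None of the genes for single-stranded DNA binding and lagging-strand completion passed between the sides, although the changes of all 5 were above 0 over both tissues. RPA2, a subunit of the complex that coats unwound DNA, gave 2176, 2603 and 2661 in left epithelium, 2403, 2309 and 1724 in right epithelium, 1994, 2372 and 2326 in left mesenchyme, and 1686, 1991 and 1947 in right mesenchyme. The mesenchymal sides came closest at 1994 against 1991, and the epithelial sides overlapped. RPA1, RPA2 and RPA3 had differences of 0.36 ± 0.11, 0.23 ± 0.10 and 0.25 ± 0.14 over both tissues. FEN1, the nuclease that trims the flaps of Okazaki fragments, had 3426, 3034 and 3553 in left epithelium, 2889, 2634 and 2579 in right epithelium, 2469.6, 3003 and 3002 in left mesenchyme, and 2374, 2292 and 2214 in right mesenchyme. Left lay above right within each tissue on all arrays, and the change was 0.30 ± 0.09 (adjusted p = 0.067). LIG1, the ligase that seals the fragments, was a dim probe set with a difference of 0.33 ± 0.27 (adjusted p = 0.61).

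The enzymes that supply deoxynucleotides held 3 of the 9 genes that rose on the left over both tissues. TYMS, thymidylate synthase, which makes the thymine nucleotide, gave 2095, 2328 and 2504 in left epithelium, 1740.2, 1492 and 1274 in right epithelium, 1876, 1914 and 1575 in left mesenchyme, and 1124, 1038 and 1190.5 in right mesenchyme. Left exceeded right on all arrays in each tissue. TYMS changed by 0.67 ± 0.16 (adjusted p = 0.031, 1.59-fold) in mesenchyme, 0.62 ± 0.16 (adjusted p = 0.044, 1.54-fold) in epithelium and 0.65 ± 0.11 (adjusted p = 0.0014, 1.56-fold) over both, and was the member called in all 3 comparisons. The call over both tissues was lost without experiment 2 (adjusted p = 0.071), and that in mesenchyme without left mesenchyme 1, 2 or 3 or right mesenchyme 1, 2 or 3 (adjusted p up to 0.19) or without experiment 1 or 2 (adjusted p up to 0.44). In epithelium it was lost without any 1 of left epithelium 2 or 3, left mesenchyme 1, 2 or 3, right mesenchyme 1 or 2, or right epithelium 2 or 3 (adjusted p up to 0.24) or without experiment 1, 2 or 3 (adjusted p up to 0.33).

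TK1, the thymidine kinase that salvages thymidine, gave 2918, 2484 and 2568 in left epithelium, 2243, 1933 and 1936 in right epithelium, 1906, 2128 and 1872 in left mesenchyme, and 1646, 1147 and 935 in right mesenchyme. The left arrays of each tissue lay above its right arrays, and right mesenchyme 3 was the lowest of the 12. The change was 0.69 ± 0.16 (adjusted p = 0.025, 1.62-fold) in mesenchyme, 0.38 ± 0.16 (adjusted p = 0.29) in epithelium and 0.54 ± 0.11 (adjusted p = 0.0063, 1.45-fold) over both tissues. TK1 lost the call over both tissues without experiment 2 or 3 (adjusted p up to 0.14) and the call in mesenchyme without left mesenchyme 2 or 3 or right mesenchyme 2 or 3 (adjusted p up to 0.18) or without experiment 2 or 3 (adjusted p up to 0.38). RRM2, the small subunit of ribonucleotide reductase with the highest mean signal of the role, had 11689, 11412 and 10905 in left epithelium, 10636, 10659.5 and 9728 in right epithelium, 9282, 8662 and 10783 in left mesenchyme, and 7378, 6845 and 7919 in right mesenchyme. The sides did not overlap within either tissue. RRM2 rose by 0.25 ± 0.07 (adjusted p = 0.034, 1.19-fold) over both tissues, with differences of 0.37 ± 0.09 (adjusted p = 0.052) in mesenchyme and 0.13 ± 0.09 (adjusted p = 0.62) in epithelium, and the call was lost without any 1 of left epithelium 1 or 2, left mesenchyme 1 or 3, right mesenchyme 1 or 2, or right epithelium 3 (adjusted p up to 0.14) or without experiment 1, 2 or 3 (adjusted p up to 0.19). The large subunit RRM1 had a difference of 0.19 ± 0.15 (adjusted p = 0.57).

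E2F1, an activator of S-phase transcription, rose on the left with the smallest adjusted p of the 44 genes in mesenchyme and over both tissues. Its signals were 2704, 2470.2 and 2551 in left epithelium, 1777, 2394 and 1907 in right epithelium, 2293, 2284 and 2689 in left mesenchyme, and 1113, 1221 and 1503 in right mesenchyme. The right mesenchyme arrays were the lowest of the 12, and left exceeded right within each tissue. The change was 0.92 ± 0.15 (adjusted p = 0.0020, 1.89-fold) in mesenchyme, 0.35 ± 0.15 (adjusted p = 0.31) in epithelium and 0.64 ± 0.11 (adjusted p = 0.0010, 1.56-fold) over both tissues. The call over both tissues stood in all 15 fits that left out 1 array or 1 experiment, and that in mesenchyme was lost without experiment 1 (adjusted p = 0.052). E2F8, a repressor of E2F target genes, had 1038, 1052 and 995 in left epithelium, 931, 836 and 837 in right epithelium, 854, 953 and 839.8 in left mesenchyme, and 627, 725 and 857 in right mesenchyme. Left and right were apart in epithelium and overlapped in mesenchyme, where right mesenchyme 3 reached the left level, and the change was 0.25 ± 0.12 (adjusted p = 0.32). The other E2F8 probe sets, both dimmer, gave 0.74 and 0.66 over both tissues. The first gave -0.03 in mesenchyme and 1.51 in epithelium, and the second 0.73 and 0.60. Such spread was not rare. Of 19 members with several tested probe sets, 6 had a dimmer set whose side difference had the opposite sign (GINS1, CCNE1, GINS3, POLA1, POLD3 and RPA1). In 5, a dimmer set of the same sign differed by more than 0.3 (E2F8, GINS1, MCM6, PRIM2 and RFC4).

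Of the 5 cyclins, CCND1 and CCND2 fell on the left and none rose. CCNE2, which activates CDK2 at the start of S phase, gave 673, 481 and 757 in left epithelium, 527, 530.2 and 342 in right epithelium, 791, 429 and 714 in left mesenchyme, and 541, 339 and 339.8 in right mesenchyme. The sides overlapped in both tissues, and the change was 0.54 ± 0.18 (adjusted p = 0.10), while its relative CCNE1 had a difference of -0.11 ± 0.19 (adjusted p = 0.85). CCND1, a D cyclin that starts the release of E2F in response to growth signals, had 2898, 2544 and 3032 in left epithelium, 3691, 3407 and 4297 in right epithelium, 3353, 3205 and 2957 in left mesenchyme, and 3801, 3930.2 and 3394 in right mesenchyme. All left arrays lay below all right arrays. The CCND1 difference was -0.32 ± 0.09 (adjusted p = 0.041, 1.25-fold lower) over both tissues, -0.42 ± 0.12 (adjusted p = 0.099) in epithelium and -0.22 ± 0.12 (adjusted p = 0.51) in mesenchyme. It was not called without any 1 of left epithelium 1 or 2, left mesenchyme 1, 2 or 3, right mesenchyme 1 or 2, or right epithelium 3 (adjusted p up to 0.15) or without experiment 1, 2 or 3 (adjusted p up to 0.27).

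CCND2, another D cyclin, gave 2809, 2102 and 2330.3 in left epithelium, 2499.9, 3628 and 2845 in right epithelium, 2585, 2210.4 and 2098 in left mesenchyme, and 3397, 3735 and 3357 in right mesenchyme. The left mesenchyme arrays all lay below the right ones, and the epithelial sides overlapped through experiment 1. The CCND2 difference was -0.61 ± 0.15 (adjusted p = 0.049, 1.52-fold lower) in mesenchyme, -0.30 ± 0.15 (adjusted p = 0.43) in epithelium and -0.45 ± 0.11 (adjusted p = 0.017, 1.37-fold lower) over both. The call over both tissues was lost without any 1 of left epithelium 2, left mesenchyme 2 or 3, right mesenchyme 2, or right epithelium 2 (adjusted p up to 0.070) or without experiment 2 or 3 (adjusted p up to 0.36), and that in mesenchyme without any 1 of left epithelium 3, left mesenchyme 1, 2 or 3, or right mesenchyme 1, 2 or 3 (adjusted p up to 0.24) or without experiment 1, 2 or 3 (adjusted p up to 0.34). The direction held in the other probe sets of these genes, -0.38 for the other CCND1 set and -0.30 and -0.24 for the other CCND2 sets over both tissues. In mesenchyme the other CCND2 sets gave -0.36 and -0.36, and the call there was lost with the mean of all CCND2 probe sets. CCND3, the remaining D cyclin, had 237, 388 and 240.3 in left epithelium, 229, 318 and 185 in right epithelium, 191, 295 and 198 in left mesenchyme, and 223, 342 and 147 in right mesenchyme. Its sides overlapped in both tissues, and its change was 0.11 ± 0.18 (adjusted p = 0.84).

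**Figure D3:**
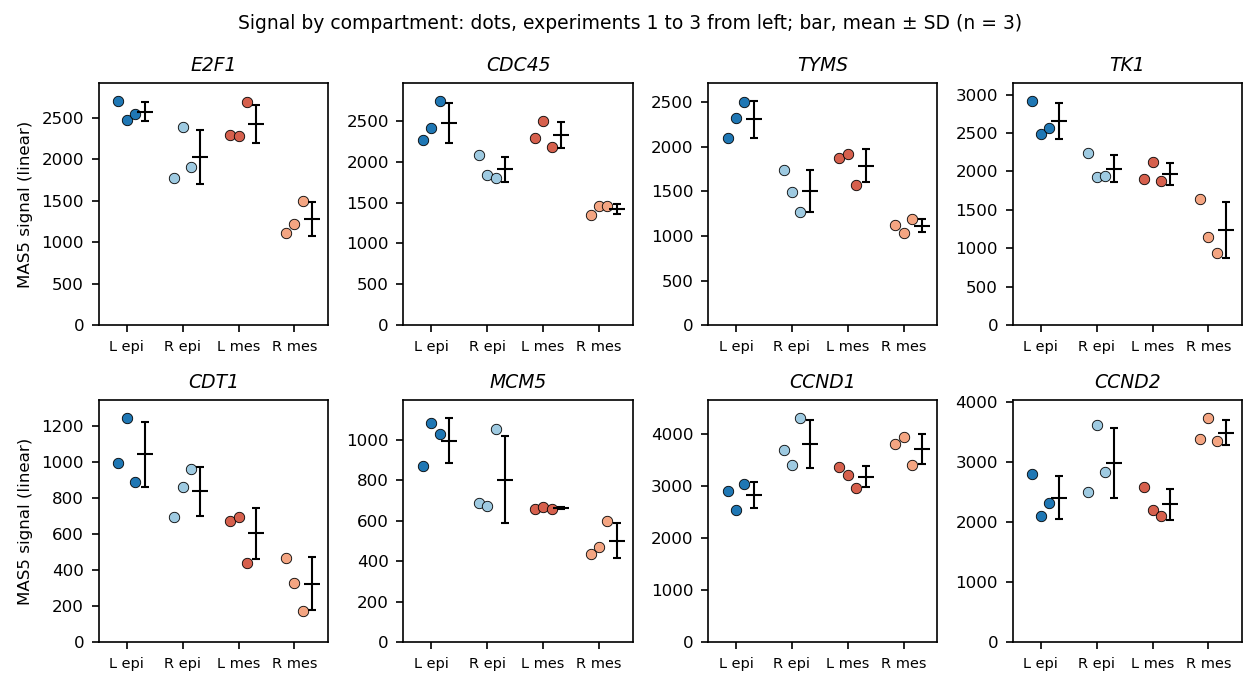
MAS5 signal of 8 genes by compartment (L, left; R, right; epi, epithelium; mes, mesenchyme); dots are the arrays of experiments 1 to 3 from left to right, and the bar is the mean ± SD (n = 3). E2F1 and CDC45 are lowest in right mesenchyme, where CDC45 runs from 1352 to 1462, CDT1 and MCM5 step down from epithelium to mesenchyme, and CCND1 and CCND2 are lower on the left.

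The left-right change did not pass a test of difference between the tissues for any gene of the set. The change in epithelium minus that in mesenchyme had a median of -0.07 over the 44 genes and was above 0 for 13 of them, beside a median of 0.01 for all probe sets. By limma, 0 genes passed in either direction, 1 had an unadjusted p under 0.05, and 0.0260% of all probe sets were called. E2F1, with 0.92 ± 0.15 in mesenchyme and 0.35 ± 0.15 in epithelium, had an interaction of -0.57 ± 0.21 (adjusted p = 0.75). For CDT1 the interaction was -0.63 ± 0.37 (adjusted p = 0.90).

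**Figure D4:**
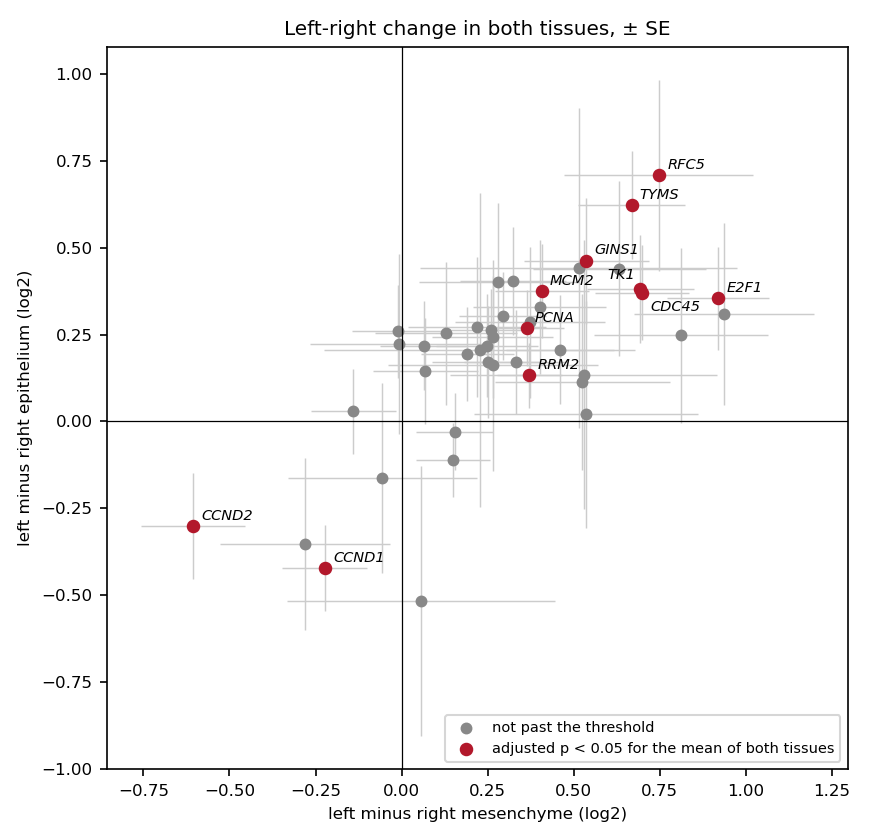
Left minus right change (log2) of each gene in mesenchyme (horizontal) against that in epithelium (vertical), with grey lines of ± 1 SE; red marks the 11 genes called for the mean of both tissues. The 9 genes that rose lie in the upper right and CCND1 and CCND2 in the lower left.

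Between the tissues, 6 of the 44 genes were higher in epithelium than in mesenchyme over both sides (MCM5, CDT1, PCNA, RFC2, RRM2 and TK1) and 0 lower, beside 2.00% and 2.79% of all probe sets (4.79% in all). The median change was 0.17, against -0.01 for all probe sets, and 41 of 44 changes were above 0. In all 3 experiments 20 genes were higher in epithelium and 1 lower, beside 17.6% and 20.2% of all probe sets. The medians by experiment were 0.28, 0.17 and 0.18. These arrays are the same as in the comparison of sides, and both contrasts count left epithelium with a plus and right mesenchyme with a minus.

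CDT1, the MCM loading factor, had the largest difference, 1.10 ± 0.19 (adjusted p = 0.0015, 2.14-fold). Its epithelial arrays ran from 693 to 1241 and its mesenchymal arrays from 175 to 697, so the tissues met at 1 array each. The other CDT1 probe set gave 0.43. MCM5 was higher in epithelium by 0.61 ± 0.14 (adjusted p = 0.014, 1.53-fold). It was the 1 gene of the set whose 6 epithelial arrays all lay above its 6 mesenchymal arrays, as did 0.793% of all probe sets; 0 genes of the set, and 1.19% of all probe sets, lay wholly below. TK1 changed by 0.58 ± 0.11 (adjusted p = 0.0037, 1.5-fold), RRM2 by 0.37 ± 0.07 (adjusted p = 0.0028, 1.29-fold), RFC2 by 0.40 ± 0.08 (adjusted p = 0.0078, 1.32-fold) and PCNA by 0.29 ± 0.08 (adjusted p = 0.033, 1.23-fold). For each of the 6 genes the mean epithelial minus mesenchymal change was above 0 in all 3 experiments.

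The CDT1 and TK1 calls stood in all 15 fits that left out 1 array or 1 experiment. Those fits do not include the one without both left epithelium 2 and 3, where the changes were 0.98 for CDT1 and 0.56 for TK1. RFC2 was lost without experiment 2 or 3 (adjusted p up to 0.17), RRM2 without experiment 1 or 2 (adjusted p up to 0.14), and MCM5 without left epithelium 2 or left mesenchyme 3 (adjusted p up to 0.055) or without experiment 1, 2 or 3 (adjusted p up to 0.13). PCNA was lost without any 1 of left epithelium 1 or 2, left mesenchyme 1, 2 or 3, right mesenchyme 1 or 2, or right epithelium 2 or 3 (adjusted p up to 0.11) or without experiment 1 or 2 (adjusted p up to 0.33), and its adjusted p was 0.055 without the experiment as a block. RFC2 had an adjusted p of 0.31 with the mean of its 2 probe sets. Just above the threshold lay E2F1 at 0.37 ± 0.11 (adjusted p = 0.052), TYMS at 0.39 ± 0.11 (adjusted p = 0.053) and GINS1 at 0.44 ± 0.13 (adjusted p = 0.059). The D cyclins had tissue differences of -0.07 ± 0.09 for CCND1, -0.09 ± 0.11 for CCND2 and 0.19 ± 0.18 for CCND3, none past the threshold. The other CCND2 probe sets, with mean signals of 1990 and 1970, gave larger tissue differences of -0.24 and -0.38. The other CCND1 set gave -0.02, and a CCND3 set too dim to be tested gave -0.19.

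Across the 12 arrays, the members varied together to different degrees. The Pearson correlation of a gene with the mean of the standardised log2 values of the other members had a median of 0.57 and was above 0 for 38 of 44 genes. Over all probe sets tested, the median correlation with the members' mean was -0.01. The closest were TK1 at 0.92, RRM2 at 0.91 and FEN1 at 0.90, and the genes below 0 were CCND2 at -0.68, CCND1 at -0.66, ORC3 at -0.36, POLD3 at -0.20, CCNE1 at -0.04 and PRIM1 at -0.02. Outside the set, the genes whose pattern over the 12 arrays came nearest to the mean of the members were BRCA1 at r = 0.98, SDC1 at 0.95, NDC1 at 0.95, ZFAND5 at 0.95 and LAMA5 at 0.94. These correlations describe 12 arrays of 4 compartments that share experiments and scaling, and carry no test.

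Some other genes of the pathway, outside the 44, were called on the same arrays. Of 41 further replication and S-phase genes tested, 8 rose on the left over both tissues, 0 fell and 33 were not called. In mesenchyme 1 rose and 0 fell, beside 0.932% and 1.06% of all probe sets. In epithelium 0 rose and 0 fell, beside 1.00% and 1.47%. Between tissues 6 were higher in epithelium and 0 lower. The median changes of the 41 were 0.20 over both tissues and 0.22 between tissues. Over all probe sets 2.45% rose and 2.82% fell over both tissues, and 2.00% were higher and 2.79% lower in epithelium. BRCA1, a repair gene active in S phase, rose on the left by 0.46 ± 0.10 (adjusted p = 0.020) in mesenchyme and 0.41 ± 0.07 (adjusted p = 0.0015) over both tissues, and was higher in epithelium by 0.39 ± 0.07 (adjusted p = 0.0029). It had signals of 5665, 5546 and 5802 in left epithelium, 4414, 4348 and 4509 in right epithelium, 4647, 4208 and 4616 in left mesenchyme, and 3554, 3057 and 3188 in right mesenchyme. Its left arrays lay above its right arrays in each tissue. GMNN, the inhibitor of CDT1, rose on the left by 0.41 ± 0.08 (adjusted p = 0.0060), TOP2A, the topoisomerase that untangles copied DNA, by 0.54 ± 0.12 (adjusted p = 0.011), and UHRF1, which carries DNA methylation through replication, by 0.66 ± 0.16 (adjusted p = 0.020).

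Among 20 E2F, retinoblastoma and G1-S regulators, 2 rose on the left in mesenchyme and 4 over both tissues (E2F7, RBL1, MYCN and CKS2), with 0 falling. Over all probe sets 0.932% and 2.45% rose. E2F7, a repressor of E2F targets that partners E2F8, had signals of 1129, 1502 and 1181 in left epithelium, 849.6, 837 and 784 in right epithelium, 947, 1190.2 and 1363 in left mesenchyme, and 464, 496 and 458 in right mesenchyme. Right mesenchyme was far below the other compartments, and the sides did not overlap in either tissue. Its change was 1.26 ± 0.18 (adjusted p = 0.00062) in mesenchyme and 0.93 ± 0.13 (adjusted p = 0.00017) over both tissues. MYCN, a driver of growth and cycling in embryonic cells, rose by 0.63 ± 0.13 (adjusted p = 0.011) in mesenchyme. E2F3 was higher in epithelium by 1.12 ± 0.25 (adjusted p = 0.013), with CKS1B at 0.72 ± 0.17 (adjusted p = 0.016) and TFDP2, a partner of E2F factors, at 0.51 ± 0.10 (adjusted p = 0.0055). Of 9 CDK inhibitors and cell cycle brakes tested, limma called 0 in either direction in each of the 4 comparisons. The median change of the 9 over both tissues was 0.07, with 6 above 0 and 3 below. Between tissues their median was -0.20, with 2 above 0 and 7 below, beside a median of -0.01 for all probe sets. By experiment that median was -0.21, -0.17 and -0.16. The inhibitor CDKN1B, named after its values were seen and 1 of the 3 below 0, had a difference of -0.14 ± 0.15 (adjusted p = 0.71) over both tissues.

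Genes of mitosis also had their highest values in left epithelium (median centred log2 0.29 to 0.36) and their lowest in right mesenchyme (-0.49 to -0.21). Of the mitosis genes, 18 of 30 rose on the left over both tissues and 0 fell, 4 rose in mesenchyme, 5 in epithelium and 11 were higher in epithelium than in mesenchyme. The shares of all probe sets called higher were 2.45%, 0.932%, 1.00% and 2.00%, in that order. The median change of the mitosis genes over both tissues was 0.36. NUSAP1, a spindle protein, had the smallest adjusted p, with 0.71 ± 0.09 (adjusted p = 0.00013) over both tissues, and MKI67, the usual label of cycling cells, rose by 0.55 ± 0.09 (adjusted p = 0.00063).

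Markers of other cells also differed between the compartments. The summed signal of 22 endothelial markers was 14080.4 to 15378 in left mesenchyme, 6819 to 7633 in right mesenchyme, 3247 to 5088 in left epithelium and 3337 to 4047 in right epithelium. It was thus higher on the left in mesenchyme, where 5 of 20 tested markers rose, beside 0.932% of all probe sets. In epithelium it overlapped between the sides. There FLT1 was called lower on the left (-1.14 ± 0.23, adjusted p = 0.012) and 0 markers were called higher, beside 1.47% and 1.00% of all probe sets. In epithelium all left arrays lay above all right arrays for 2 of the 20 and below for 4, beside 7.77% and 7.91% of all probe sets. Between tissues the endothelial sum was lower in epithelium. The blood cell markers summed to 19351 to 63586 in left epithelium and 68236 to 71876 in right epithelium, and to 45232 to 58934 and 52740.1 to 60817 in left and right mesenchyme. In epithelium they were lower on the left, and in mesenchyme the sides overlapped.

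Lists that name the compartments themselves differed by side as well. The 14 mesenchyme markers summed to 39464 to 45579.6 in left and 54884 to 56013 in right epithelium, and to 49783 to 52513 in left and 59726 to 61823 in right mesenchyme. They were thus lowest in left epithelium and highest in right mesenchyme, opposite to the medians of the replication genes. Of 12 tested, 4 fell on the left over both tissues and 2 rose, beside 2.82% and 2.45% of all probe sets. The 14 coelomic epithelium markers summed to 47167 to 51501 in left and 55393 to 59498 in right epithelium, and to 31195 to 33856 in left and 38339.9 to 40424 in right mesenchyme. Their sums were lower on the left in both tissues. Of 11 tested, 5 fell over both tissues and 1 rose, beside 2.82% and 2.45% of all probe sets. Gene by gene, 6 of the 11 had changes above 0 in mesenchyme (median 0.13) and 5 in epithelium (median -0.05).

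The 7 germ cell markers, genes of the primordial germ cells that pass through this tissue on their way to the gonads, summed to 7595 to 9232 in left epithelium, 5409 to 6542 in right epithelium, 6523 to 7062 in left mesenchyme and 4496 to 5308 in right mesenchyme. In each tissue the sums of the left arrays all exceeded those of the right arrays. They were highest in left epithelium and lowest in right mesenchyme, as were the medians of the replication genes. Of 6 germ cell markers tested, 2 rose on the left over both tissues, beside 2.45% of all probe sets. These were DAZL, by 0.50 ± 0.08 (adjusted p = 0.00068), and PIWIL1, by 0.57 ± 0.15 (adjusted p = 0.031). DAZL, an RNA-binding protein of germ cells, was also higher in epithelium by 0.31 ± 0.08 (adjusted p = 0.028). DDX4, another defining germ cell gene, had signals of 709.6, 503 and 711 in left epithelium, 535, 554 and 337 in right epithelium, 382, 568 and 589 in left mesenchyme, and 377, 469 and 446 in right mesenchyme. Its sides overlapped in both tissues. No blood or germ cell marker was at or below the floor on all arrays of a compartment. Of the endothelial markers, ROBO4 was so in both right compartments. The summed signals of endoderm markers were 353 to 506 in left and 313 to 589 in right epithelium, and 496 to 556 in left and 542 to 685 in right mesenchyme. They overlapped between the sides of each tissue, and the endoderm gene SOX2 was at or below the floor in every compartment. The summed neural crest and enteric neuron markers also overlapped, at 2527 to 3274 and 2719 to 3371 in left and right epithelium and 2655 to 2989 and 2680.3 to 3107 in left and right mesenchyme. The part of any of these cell types in the changes of the replication genes was not tested.

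The 2 left epithelium arrays with low blood signal were also left out together, which left 1 array in that compartment. The median change of the 44 genes was then 0.28 over both tissues and 0.26 between tissues. With all arrays these medians were 0.26 and 0.17. The bearing of blood content on the changes was not tested.

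**Figure D5:**
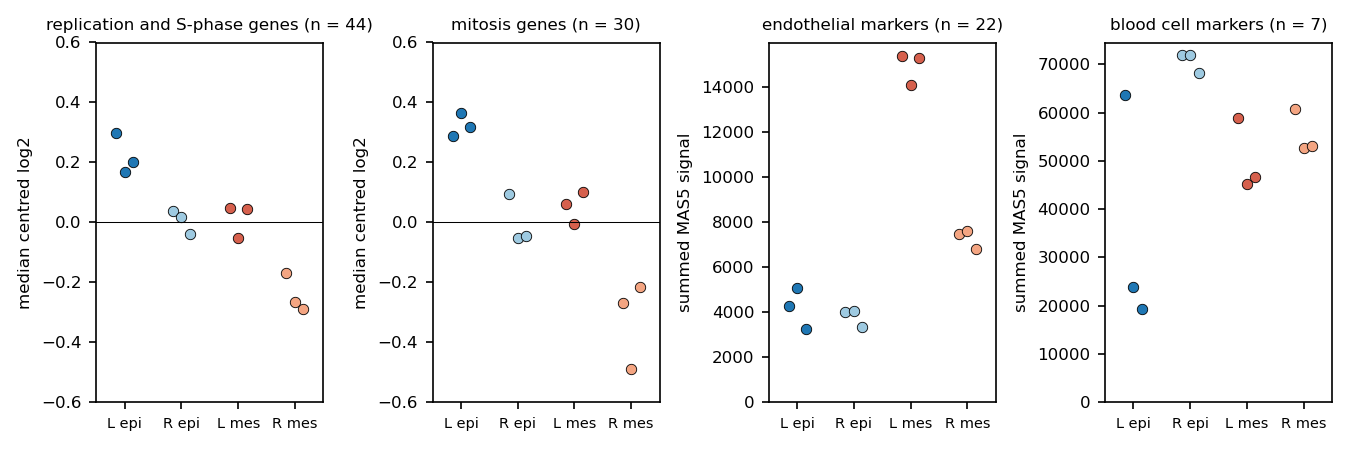
Per array and compartment, from left to right: the median centred log2 value of the 44 replication genes, that of 30 mitosis genes, and the summed MAS5 signal of 22 endothelial and 7 blood cell markers; dots are experiments 1 to 3 from left to right. Replication and mitosis genes are highest in left epithelium and lowest in right mesenchyme, endothelial markers stand out in left mesenchyme, and blood markers are low on left epithelium 2 and 3.

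RNA quality differed somewhat between the sides. The log2 excess of the 3′ over the 5′ control probe set of GAPDH was 1.23 to 1.58 on the 6 left arrays and 0.95 to 1.30 on the 6 right arrays, and that of actin 1.27 to 1.88 and 1.05 to 1.74. The ranges overlapped, and the bearing of RNA quality on the changes was not tested.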

How the data were processed

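The authors deposited 1 table of Affymetrix intensity values made with MAS5 in GCOS (versions not named), per the submitters' processing notes. These values were linear and already scaled by the authors, since each array's mean after trimming 2% at each end was 500.11 or 500.12. Detection calls were not used here. Each array held 38535 probe sets, of which 96 were controls. Of 37693 chicken probe sets, the platform annotation (2016) gives 27166 a single symbol, 177 several and 10350 none.

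Signals were taken as log2(signal + 16) and the 23063 of 38439 probe sets with a mean above the 40th percentile (signal 47.4) were tested with limma 3.58.1 in R 4.3.3. The model held the 4 compartments and the experiment as a fixed block, with an intensity trend in eBayes, a two-sided test and Benjamini-Hochberg adjustment over all 23063 probe sets at 0.05. The error of a change is the standard error of the fit, as moderated by eBayes. The fit had 6 residual degrees of freedom, to which eBayes added a median of 10.6 prior degrees of freedom. Exact tests of single genes cannot go below p = 0.1 with 3 arrays against 3 and were not used. The number of arrays, 3 per compartment, limits the precision. Replicate numbers were taken as the 3 biological experiments of the series text. Deviations from the compartment means correlated by -0.06 to 0.10 between arrays of the same number (18 pairs, mean 0.02). Among the arrays of the other compartments alone, 10 of 12 arrays correlated best with an array of their own number. No chance level was set beside that count.

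The members and the other gene and marker lists were chosen with earlier results of these data known. All members are accounted for; those called in any contrast, the D cyclins, the E2F factors and the brightest member of each role are given with all arrays. Genes of other lists were named where called, at most 6 per list and contrast. The inhibitor CDKN1B was added after its values were seen. DDX4, which was not called, and some markers at or below the floor were named as well. Alternatives changed the block, offset, filter, scaling, variance model, probe set choice and the arrays used. Sequences were not used here.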

Additional observations from a re-analysis of the deposited data

How the results depend on the processing

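No median of the 44 genes, and no gene called in the comparison concerned, reversed its direction under a setting tried. Differences that did not pass the test did so more often. Over both tissues 10 genes turned in at least 1 setting (25 of 1184 values), with 12 in mesenchyme, 13 in epithelium and 14 between tissues. Leaving out 1 array or 1 experiment gave left-right ranges of -0.14 to 0.55 for MCM3, -0.11 to 0.00882 for ORC3, -0.17 to 0.51 for MCM10, -0.12 to 0.80 for POLA2, -0.46 to 0.0578 for PRIM1, -0.0882 to 0.10 for RFC4, -0.25 to 0.0800 for CCNE1 and -0.0234 to 0.20 for CCND3, and tissue ranges of -0.20 to 0.0309 for CCND1 and -0.17 to 0.00318 for CCND2. The mean of all probe sets of a gene turned GINS3 to -0.0738, POLD3 to 0.0199 and CCND3 to -0.11, and array weights turned RFC4 to -0.00394. Without both right epithelium 3 and right mesenchyme 3, MCM3 was -0.14, PRIM1 0.0578, RFC4 -0.0882, CCNE1 0.0800 and CCND3 -0.0234. Without both left epithelium 2 and 3, POLD3 was 0.0770, RFC4 -0.0841 and CCNE1 0.0839 between the sides and CCND2 0.0445 between tissues. The causes were not tested.

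The number of the 44 genes called was 5 between the sides of the mesenchyme, 1 in epithelium, 11 over both tissues and 6 between tissues, in that order below. With no intensity trend it was 0, 0, 3 and 3, while calls over all probe sets numbered 205, 268, 709 and 672, and the cause was not tested. Centring each array on its median gave 3, 0 and 6 genes between the sides, and a median change of 0.24 between tissues. With no filter the counts in epithelium and over both tissues were 0 and 7, where more probe sets entered the adjustment. In epithelium the single call, TYMS, was lost (0 genes) under quantile normalization, array weights and a fit of the compared arrays alone, and 2 genes were called with the mean of all probe sets of a gene.

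Leaving out 1 array or 1 experiment gave 1 to 7, 0 to 1, 2 to 12 and 2 to 8 genes, with median changes of 0.23 to 0.33, 0.20 to 0.24, 0.22 to 0.29 and 0.17 to 0.24; the lowest count over both tissues and between tissues came without experiment 2, where all probe sets gave 483 and 419 calls against 1217 and 1105. Without both right epithelium 3 and right mesenchyme 3 the counts between the sides were 2, 0 and 4, and the epithelial median was 0.19. Without both left epithelium 2 and 3, a setting chosen after seeing the data, the median between tissues was 0.26. In that fit 1 left epithelium array stood alone and was assumed to vary like the others. The changes over both tissues were then 0.47 for CDC45, 0.53 for TYMS and 0.52 for TK1. Fits without the experiment as a block called 6, 1, 11 and 6 genes, and PCNA between tissues, at an adjusted p of 0.055, was the 1 called gene that lost its call without the block. The interaction gave 0 calls in all settings. A selection of 2205 values of single genes under other settings was also sorted. It held only genes called under some setting or chosen to have their values given here. Of the 2205, 1930 kept their direction and side of the threshold, 28 turned, 198 lost the call and 49 gained it. Over all 44 genes more values turned. These were 38 of 1228 in mesenchyme, 32 of 1228 in epithelium, 44 of 1184 between tissues and 155 of 1184 for the interaction. Only values of genes called in the comparison concerned can lose a call, and these numbered 140, 28, 297 and 162 in the same order. Most of the 2205 were of genes not called, which keep their side when they stay uncalled. With 3 arrays a group, a change of the size of most members is not resolved gene by gene, and of the members POLA2, MCM10, PRIM1 and LIG1 have the largest standard errors.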
